A study of Mus musculus with 6 samples.

Results

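The Foxo genes Foxo1, Foxo3 and Foxo4 and the Rosa26 transcript, Gt(ROSA)26Sor, were followed across Treg cells that lacked Foxo1, carried an active form of it, or both. Every probe set listed with exactly 1 of these 4 gene symbols was taken, which gave 10 of the 45037 probe sets tested and 4 of the 18193 genes represented. Foxo1 had 4 probe sets, Foxo3 had 3, Foxo4 had 2 and Gt(ROSA)26Sor had 1. A further probe set that the annotation lists with several genes, 1 of the 4 among them, was left out.

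RNA came from regulatory T cells (Treg cells), a CD4 lineage that holds immune responses in check, sorted by flow cytometry from C57BL/6 mice and hybridised to 6 Affymetrix arrays in 4 groups. Foxo1KO/Foxo1AAA mice (1 array) lacked Foxo1 and carried a constitutively active form of it, Foxo1AAA mice (1 array) carried the active form alone, Foxo1KO mice (2 arrays) lacked Foxo1, and wild-type (WT) mice (2 arrays) were the controls. Not given in the sources used here are which part of Foxo1 was deleted and how, where Foxo1AAA was inserted and what drives it, the gates, whether mice were pooled, and their age and sex. The design asks which transcripts depend on Foxo1 and which of them return when the active form is added to knockout cells.

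Foxo proteins are forkhead transcription factors that share a DNA-binding domain and act on many of the same genes. When growth factor, cytokine or antigen receptors switch on PI3K, the kinase Akt phosphorylates Foxo proteins, 14-3-3 proteins hold them in the cytoplasm, and their target genes fall silent. A form in which the Akt sites are alanine escapes this control. In T cells Foxo1 maintains genes of quiescence, survival and lymph node homing, and in Treg cells it restrains effector genes. Gt(ROSA)26Sor is a noncoding transcript made in nearly all mouse cells, and its first intron is the place where transgenes are most often inserted into the mouse genome.

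The start sites of Foxo1 on chromosome 3, whose probe sets were called in several comparisons, and of Foxo3 on chromosome 10, whose probe sets were called in none, are shown as 300-base windows from RefSeq, build GRCm38.p6, read 5′ to 3′ on the gene's own strand. The Foxo1 window is chr3:52268087-52268386 on the plus strand and the Foxo3 window is chr10:42276646-42276945 on the minus strand. Capitals mark the CCAAT box (CCAAT, or ATTGG on the other strand), the GC box (GGGCGG, or CCGCCC) and the forkhead element (TGTTTAC, or GTAAACA).

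Foxo1: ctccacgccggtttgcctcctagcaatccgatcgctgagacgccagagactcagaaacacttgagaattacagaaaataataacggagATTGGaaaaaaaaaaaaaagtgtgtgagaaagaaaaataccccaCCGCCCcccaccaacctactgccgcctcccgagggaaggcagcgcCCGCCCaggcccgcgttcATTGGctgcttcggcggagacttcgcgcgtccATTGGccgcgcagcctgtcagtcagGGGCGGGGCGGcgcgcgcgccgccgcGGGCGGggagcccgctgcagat
Foxo3: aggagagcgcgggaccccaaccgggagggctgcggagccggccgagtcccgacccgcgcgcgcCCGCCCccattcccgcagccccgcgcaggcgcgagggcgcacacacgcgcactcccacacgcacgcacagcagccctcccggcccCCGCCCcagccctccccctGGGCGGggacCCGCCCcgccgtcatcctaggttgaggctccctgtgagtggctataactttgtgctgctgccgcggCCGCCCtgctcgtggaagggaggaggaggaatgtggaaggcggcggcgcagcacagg

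The Foxo1 window held 3 CCAAT boxes and 5 GC boxes, of which 2 overlap each other by 1 base, and the Foxo3 window held 5 GC boxes and no CCAAT box. Neither held the forkhead element in these letters. Among 32851 mouse promoter windows of the same length, 37.4% held a CCAAT box, 35.7% a GC box and 3.65% the forkhead element. The windows were 61.3% and 75% G or C in Foxo1 and Foxo3.

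All values are log2 expression levels as deposited, so a difference of 1 is a doubling, and each level belongs to its own probe set and is not set against that of another. Differences were tested with limma in 1 fit over all arrays, and a probe set was called where its p, adjusted by Benjamini and Hochberg over every probe set, was under 0.05. The labels do not say whether replicate arrays held RNA of separate mice, so the p-values speak of array-to-array spread, which may be technical. A lone array has no replicate check of its own and was assumed to vary like the WT and Foxo1KO pairs. In RNA from many cells, fewer cells of a type and less RNA per cell cannot be told apart.

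The lone Foxo1KO/Foxo1AAA and Foxo1AAA arrays stood apart from the other 4 in cell and sex markers. These values stand beside every Foxo1AAA comparison below, of the listed genes as well as of the Foxo genes and Gt(ROSA)26Sor. Xist, transcribed from the inactive X of females, had 6.27 in Foxo1KO/Foxo1AAA cells, 6.04 in Foxo1AAA cells, 13.14 and 12.59 in Foxo1KO cells, and 13.43 and 12.03 in WT cells. The Y-linked Eif2s3y had 10.56 in Foxo1KO/Foxo1AAA cells, 10.59 in Foxo1AAA cells, 4.05 and 9.91 in Foxo1KO cells, and 3.91 and 10.09 in WT cells. Replicate 2 of Foxo1KO and of WT thus held both transcripts, and Kdm5d and Uty followed Eif2s3y. All 6 myeloid markers were measured, and their mean was 9.48 in Foxo1KO/Foxo1AAA cells and 9.06 in Foxo1AAA cells, against 6.68 to 7.05 in Foxo1KO cells and 6.44 to 6.72 in WT cells. In Foxo1AAA against WT cells 6 of the 6 were higher, and in Foxo1KO/Foxo1AAA against Foxo1KO cells 5 of the 6 were, where 22.7% and 31.5% of genes were called in either direction. Of the B cell markers 5 of 6 were measured. Their mean was 7.61 in Foxo1KO/Foxo1AAA cells and 7.88 in Foxo1AAA cells. It was 6.65 to 7.24 in Foxo1KO cells and 6.62 to 6.92 in WT cells. Cd79a, Cd79b and Ms4a1 were higher on both arrays with Foxo1AAA than on the other 4, while Blk and Pax5 lay within the range of those 4. Itgam, the dimmest of both lists, lay between 4.40 and 5.27. The mean of the 8 measured of 9 Treg and T cell markers lay within 11.05 to 11.19 on all arrays, with Il2ra between 11.15 and 11.48. The single Foxp3 probe set, for the factor that defines Treg cells, lay between 5.10 and 5.58, close to 4.97, the mean level that the dimmest 25% of probe sets do not exceed. The CD8 T and NK cell and erythroid markers lay between 6.81 and 7.54 and between 5.35 and 5.63 as list means. Single CD8 T and NK cell markers moved in opposite directions. Eomes rose by 2.25 in Foxo1KO against WT cells (limma adjusted p = 6.6e-06). In Foxo1KO/Foxo1AAA against Foxo1KO cells Eomes fell by 1.19 and Cd8a by 0.63, Cd8b1 rose by 0.92, and Ncr1 was not called. The part of these markers in the values of the Foxo genes, Rosa26 and the listed genes was not tested.

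**Figure D1:**
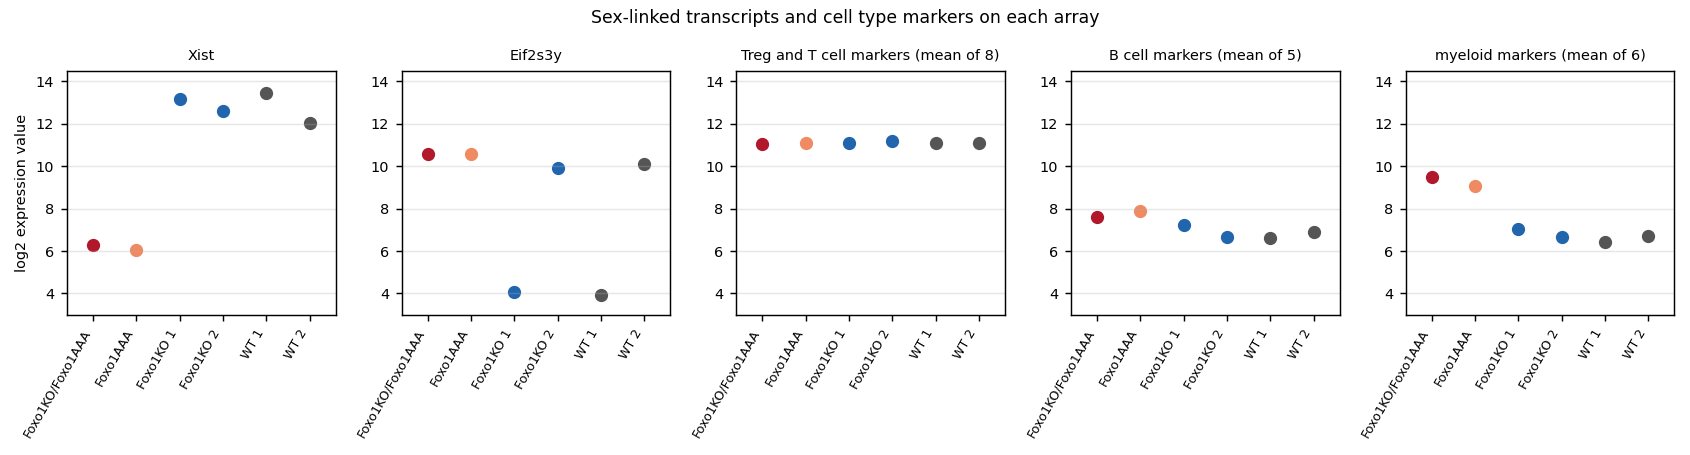
Log2 levels of the female-specific Xist, the Y-linked Eif2s3y, and the means of 3 marker lists on each array. Treg and T cell markers lie at 11.05 to 11.19 on all arrays, and the myeloid markers reach 9.48 and 9.06 on the arrays with Foxo1AAA, against 6.44 to 7.05 on the other 4.

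The Foxo1 probe sets read lowest on the Foxo1KO/Foxo1AAA array. On 1416983_s_at, the brightest Foxo1 probe set, the level was 9.66 in Foxo1KO/Foxo1AAA cells, 10.71 in Foxo1AAA cells, 10.87 and 10.65 in Foxo1KO cells, and 11.03 and 11.35 in WT cells. Both WT arrays lay above every other array, and the Foxo1AAA value lay between those of the Foxo1KO pair. On 1416981_at the level was 9.19 in Foxo1KO/Foxo1AAA cells, 10.03 in Foxo1AAA cells, 9.81 and 9.73 in Foxo1KO cells, and 10.09 and 10.42 in WT cells. On 1416982_at it was 8.46 in Foxo1KO/Foxo1AAA cells, 9.39 in Foxo1AAA cells, 9.27 and 9.18 in Foxo1KO cells, and 9.60 and 9.93 in WT cells. These 3 probe sets were made from a single source sequence, so they are not independent measurements of the gene. On 1416981_at and 1416982_at the Foxo1AAA array lay between the Foxo1KO and WT pairs. How many of all probe sets order the arrays in these ways was not counted. The 4th, 1456529_at, comes from another source sequence and had 4.40 in Foxo1KO/Foxo1AAA cells, 4.64 in Foxo1AAA cells, 4.89 and 4.85 in Foxo1KO cells, and 4.75 and 4.81 in WT cells. It was among the dimmest 25% and lay below 4.97 on every array, where the array understates differences.

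**Figure D2:**
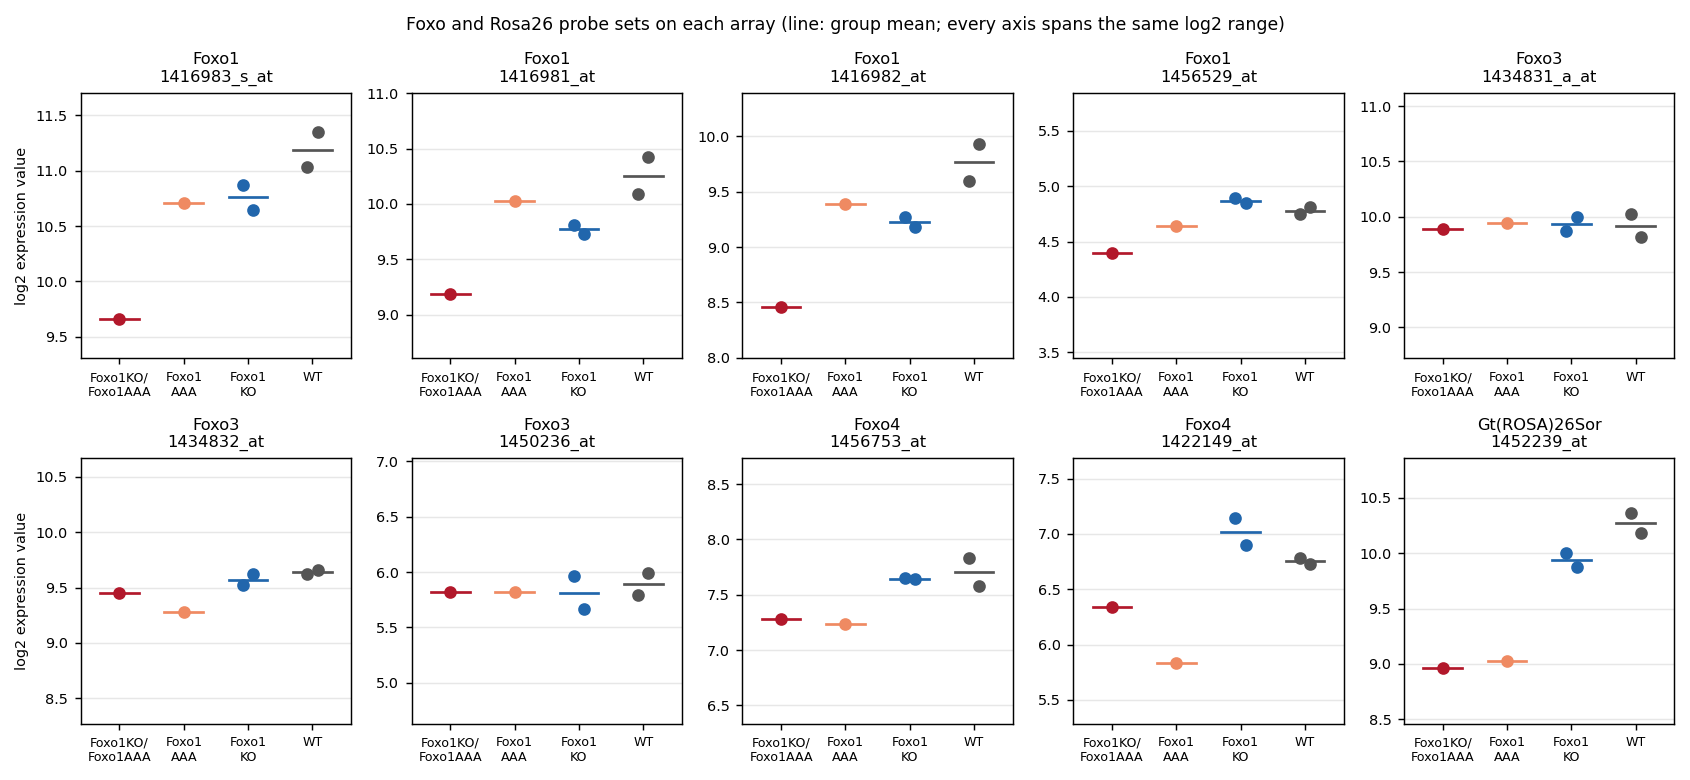
Log2 expression of the 10 probe sets of Foxo1, Foxo3, Foxo4 and Gt(ROSA)26Sor, with 1 point per array, a line at each group mean, and vertical axes of equal span but different position. The 3 bright Foxo1 probe sets were lowest on the Foxo1KO/Foxo1AAA array, and Gt(ROSA)26Sor lay at 8.96 and 9.03 on the arrays with Foxo1AAA and between 9.88 and 10.36 on the other 4.

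Most of the Foxo1 signal remained in Foxo1KO cells. Of the 10 probe sets, 2 were lower in Foxo1KO than in WT cells and none was higher, where 8.39% of all probe sets were called lower. Both were Foxo1 probe sets. 1416982_at averaged 9.22 ± 0.07 in Foxo1KO cells and 9.76 ± 0.23 in WT cells (SD, n = 2 each), a difference of -0.54 (SE 0.13, limma adjusted p = 0.023). 1416981_at averaged 9.77 ± 0.05 in Foxo1KO cells and 10.26 ± 0.23 in WT cells, a difference of -0.49 (SE 0.13, limma adjusted p = 0.034). 1416983_s_at differed by -0.43 (limma adjusted p = 0.069) and was not called, although it was with 1 probe set per gene (0.049), a variance prior that followed the mean level (0.0319), median centring (0.0436) and without WT replicate 1 (0.03). The dim 1456529_at differed by 0.09 (adjusted p = 0.68). On the linear scale the 3 bright probe sets stood at 68.8% to 74% of WT in Foxo1KO cells. Probes outside the deleted part would still bind transcript from the knockout allele, and since that part is not given, these values do not measure how complete the deletion was. Both calls ended without WT replicate 2 (adjusted p = 0.137 and 0.206 for 1416982_at and 1416981_at), and likewise without either Foxo1KO array, and the count of called probe sets was then 0. The count was also 0 when the arrays were quantile normalized once more, and 1 with the replicate number as a block.

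The Foxo1 probe sets read lower still when the active form was present in knockout cells. Whether they detect the transcript of the active form was not tested. Their levels are therefore no measure of all Foxo1 RNA in cells that carry that form. Against Foxo1KO, 6 of the 10 probe sets were lower in Foxo1KO/Foxo1AAA cells and none was higher, where 16.3% of all probe sets were called lower. Over all probe sets 6495 were called higher and 7349 lower, but 7979 higher and 5272 lower when each array was centred on its median, with 6 of the 10 still called. All 4 Foxo1 probe sets were among them: 1416983_s_at fell by 1.10 (SE 0.16, limma adjusted p = 0.002), 1416982_at by 0.76 (adjusted p = 0.0077), 1416981_at by 0.58 (adjusted p = 0.022) and the dim 1456529_at by 0.47 (adjusted p = 0.019). Without Foxo1KO replicate 1 the call of 1416981_at ended (adjusted p = 0.0945) and so did that of 1456529_at (0.0665). Without Foxo1KO replicate 2 they ended as well (0.0652 and 0.052). Against WT, 5 of the 10 were lower in Foxo1KO/Foxo1AAA cells, where 12.8% of all probe sets were called lower, again with all 4 of Foxo1. Over all probe sets 5267 were called higher and 5766 lower, but 6357 higher and 3803 lower with median centring, and 4 of the 10 were then called. There 1416983_s_at fell by 1.54 (SE 0.16, adjusted p = 4.7e-04), to 34.5% of WT on the linear scale, 1416982_at by 1.30 (adjusted p = 8.3e-04) and 1416981_at by 1.07 (adjusted p = 0.0022). The call of 1456529_at (-0.38, adjusted p = 0.049) ended without any of the 4 replicate arrays.

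With the active form present in both groups, the knockout differences in Foxo1 were larger in size than between Foxo1KO and WT but were not called. Between the lone Foxo1KO/Foxo1AAA and Foxo1AAA arrays, 1416983_s_at differed by -1.05 (SE 0.19, limma adjusted p = 0.079), 1416982_at by -0.92 (adjusted p = 0.089) and 1416981_at by -0.85 (adjusted p = 0.1). None of the 10 probe sets was called, where 0.0600% of all probe sets were called in either direction, 19 higher and 8 lower, or 88 higher and 62 lower with median centring. At an unadjusted p under 0.05, 3 were lower and 1 was higher, where 13.4% of all probe sets passed that threshold in either direction. By difference, 1416983_s_at ranked 21st from the lowest of the 45037 probe sets between these arrays. It was called when the variance prior followed the mean level (adjusted p = 0.0398), when each array was centred on its median (0.0415) and without either WT array (0.0409). Foxo1AAA alone gave differences from WT of -0.48, -0.38 and -0.22 on 1416983_s_at, 1416982_at and 1416981_at (adjusted p = 0.064, 0.11 and 0.32), none of them called. Without WT replicate 1, 1416983_s_at (-0.64, adjusted p = 0.03) and 1416982_at (-0.54, adjusted p = 0.0435) were called lower.

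The interaction contrast asked whether loss of Foxo1 made the same difference where Foxo1AAA was present. It was -0.62 for 1416983_s_at (95% interval -1.15 to -0.09, adjusted p = 0.21), -0.38 for 1416982_at (-0.88 to 0.11, adjusted p = 0.41) and -0.36 for 1416981_at (-0.85 to 0.14, adjusted p = 0.45). None of the 10 probe sets was called, where 3.04% of all probe sets were, and 1 had an unadjusted p under 0.05, where 17.8% of all probe sets did.

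**Figure D3:**
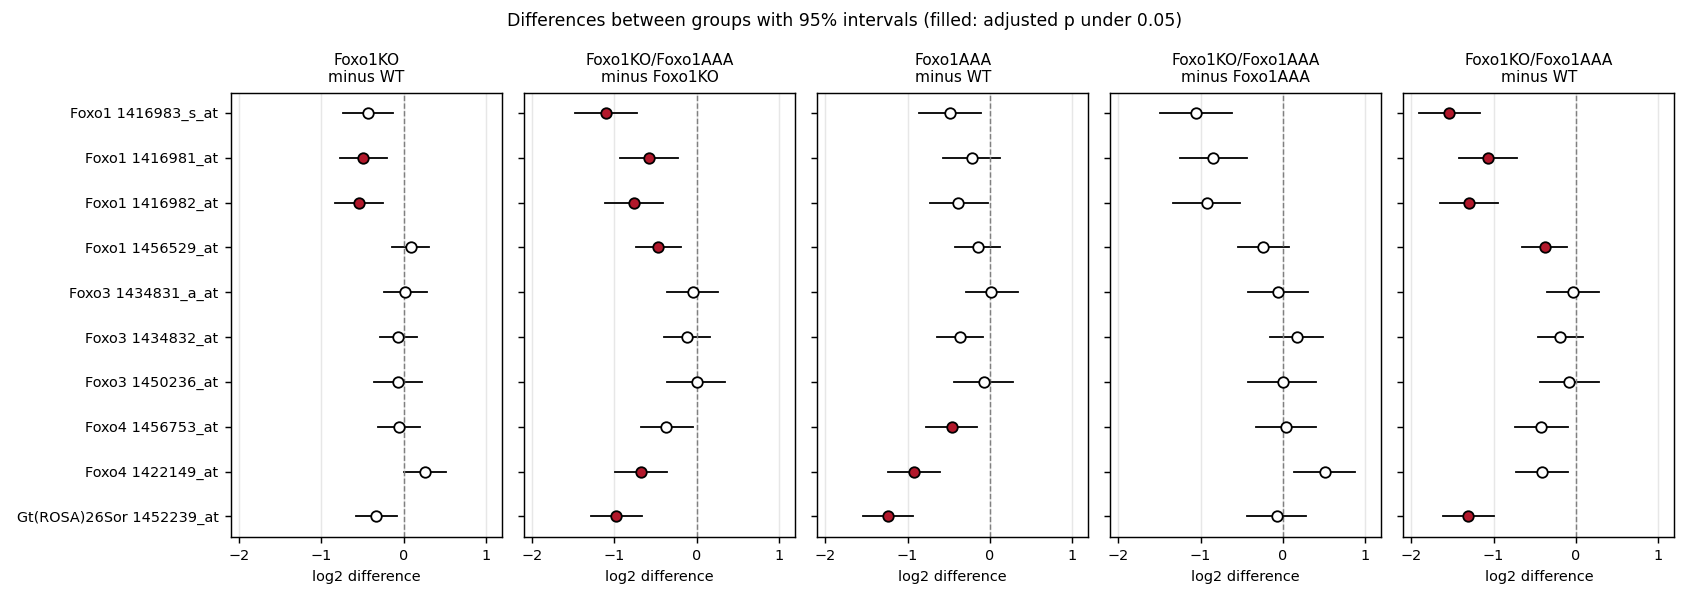
Log2 difference between groups for each of the 10 probe sets, with the first-named group minus the second on the horizontal axis and 95% intervals from the limma fit. Filled points have an adjusted p under 0.05: 2 in Foxo1KO minus WT, 6 in Foxo1KO/Foxo1AAA minus Foxo1KO, 3 in Foxo1AAA minus WT, 0 in Foxo1KO/Foxo1AAA minus Foxo1AAA and 5 in Foxo1KO/Foxo1AAA minus WT.

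Foxo3 encodes the other Foxo protein most studied in T cells. On its brightest probe set, 1434831_a_at, the level was 9.89 in Foxo1KO/Foxo1AAA cells, 9.94 in Foxo1AAA cells, 9.87 and 10.00 in Foxo1KO cells, and 10.02 and 9.82 in WT cells. The 6 arrays spanned 0.21, the narrowest range of the 10 probe sets, and the WT pair enclosed both lone arrays. On 1434832_at it was 9.45 in Foxo1KO/Foxo1AAA cells, 9.28 in Foxo1AAA cells, 9.52 and 9.62 in Foxo1KO cells, and 9.62 and 9.66 in WT cells. The third, 1450236_at, lay between 5.67 and 5.99 on all arrays. None of the 3 was called in any of the 5 comparisons. Of these, 1434831_a_at and 1434832_at were made from a single source sequence, so they are not independent measurements of the gene. Between Foxo1KO and WT the difference of 1434831_a_at was 0.02 (95% interval -0.24 to 0.28), and that of 1434832_at was -0.07 (-0.29 to 0.16). The lowest adjusted p was that of 1434832_at between Foxo1AAA and WT (-0.36, adjusted p = 0.065), and it was called when the arrays were quantile normalized once more (-0.50, adjusted p = 0.0223).

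Foxo4, on the X chromosome, was lower on both arrays with Foxo1AAA. On 1422149_at the level was 6.34 in Foxo1KO/Foxo1AAA cells, 5.83 in Foxo1AAA cells, 7.14 and 6.90 in Foxo1KO cells, and 6.78 and 6.73 in WT cells. On 1456753_at it was 7.28 in Foxo1KO/Foxo1AAA cells, 7.24 in Foxo1AAA cells, 7.65 and 7.64 in Foxo1KO cells, and 7.83 and 7.58 in WT cells. On either probe set both arrays with Foxo1AAA lay below the other 4, while on 1456753_at the Foxo1KO pair lay within the WT pair. The share of all probe sets with such an order was not counted. In Foxo1AAA against WT cells 3 of the 10 probe sets were lower and none was higher, where 13.3% of all probe sets were called lower, and both Foxo4 probe sets were among them. Over all probe sets 4702 were called higher and 5984 lower, but 6736 higher and 3488 lower when each array was centred on its median, and 2 of the 10 were then called. 1422149_at fell by 0.92 (SE 0.14, limma adjusted p = 0.0032), to 52.7% of WT on the linear scale, and 1456753_at fell by 0.46 (SE 0.14, adjusted p = 0.042). The call of 1456753_at ended without WT replicate 1 (-0.34, adjusted p = 0.164), without either Foxo1KO array (0.0714) and when each array was centred on its median (-0.35, adjusted p = 0.113). In Foxo1KO/Foxo1AAA against Foxo1KO cells 1422149_at fell by 0.68 (adjusted p = 0.0079), and 1456753_at differed by -0.37 (adjusted p = 0.077). Neither was called in Foxo1KO/Foxo1AAA against WT cells, 1422149_at differing by -0.41 (adjusted p = 0.061) and 1456753_at by -0.42 (adjusted p = 0.057). There 1456753_at was called lower with 1 probe set per gene (adjusted p = 0.0459), with repeated quantile normalization (0.0483) and without WT replicate 2 (0.0399). Deletion of Foxo1 alone gave differences of 0.26 and -0.06 on 1422149_at and 1456753_at (adjusted p = 0.19 and 0.84). Foxo4 is X-linked and the arrays differed in sex-linked transcripts, as given above. Among the 1127 X-linked probe sets, 13.5% were called lower in Foxo1AAA than in WT cells, against 11.7% of 33614 on other chromosomes. The shares were 15.4% of X-linked probe sets and 15.4% of the others in Foxo1KO/Foxo1AAA against Foxo1KO cells.

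Gt(ROSA)26Sor, on chromosome 6, separated the arrays by the presence of Foxo1AAA. Its probe set 1452239_at had 8.96 in Foxo1KO/Foxo1AAA cells, 9.03 in Foxo1AAA cells, 10.00 and 9.88 in Foxo1KO cells, and 10.36 and 10.18 in WT cells. Both arrays with Foxo1AAA lay below the other 4, and the Foxo1KO pair lay below the WT pair. The share of all probe sets that split the arrays in this way was not counted. In Foxo1AAA against WT cells it fell by 1.24 (SE 0.13, 95% interval -1.54 to -0.93, limma adjusted p = 7.1e-04), a 2.36-fold decrease that left 42.4% of the WT level. In Foxo1KO/Foxo1AAA against Foxo1KO cells it fell by 0.98 (SE 0.13, interval -1.28 to -0.67, adjusted p = 0.0014), a 1.97-fold decrease. In Foxo1KO/Foxo1AAA against WT cells it fell by 1.31 (adjusted p = 3.8e-04). These 3 calls held under every alternative run, but all of those runs kept the same lone arrays with Foxo1AAA. Between the lone Foxo1KO/Foxo1AAA and Foxo1AAA arrays it differed by -0.07 (interval -0.43 to 0.28, adjusted p = 0.92), and between Foxo1KO and WT cells by -0.33 (interval -0.58 to -0.08, adjusted p = 0.088). The difference between arrays with and without Foxo1AAA was 0.26 smaller in size in knockout than in Foxo1-sufficient cells. This interaction (interval -0.17 to 0.69) was not called. The arrays with Foxo1AAA also differed in the sex and cell markers given above, and the part of Foxo1AAA itself was not tested. The sources used here do not name the locus of the Foxo1AAA transgene.

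On their brightest probe sets, the genes on either side of Rosa26 were not called in Foxo1AAA against WT or Foxo1KO/Foxo1AAA against Foxo1KO cells. In chromosomal order the 3 neighbours with a probe set on each side are Rad18, Srgap3 and Thumpd3, and then Setd5, Lhfpl4 and Mtmr14. In both comparisons with and without Foxo1AAA, 0 of the 6 were called on the brightest probe set (limma, Foxo1AAA against WT and Foxo1KO/Foxo1AAA against Foxo1KO), where 22.7% and 31.5% of genes were called in either direction. Thumpd3, the nearest on one side, had 10.50 in Foxo1KO/Foxo1AAA cells, 10.38 in Foxo1AAA cells, 10.38 and 10.61 in Foxo1KO cells, and 10.66 and 10.70 in WT cells on 1417684_at. It differed by -0.29 between Foxo1AAA and WT (adjusted p = 0.15). Setd5, which shares the other side, had 9.99 in Foxo1KO/Foxo1AAA cells, 10.00 in Foxo1AAA cells, 9.88 and 9.92 in Foxo1KO cells, and 9.93 and 9.69 in WT cells on 1437206_at, and differed by 0.19 between Foxo1AAA and WT (adjusted p = 0.34). In other comparisons Rad18 was called on its brightest probe set, 1435826_at. It was higher than in WT cells by 0.48 in Foxo1KO cells (limma adjusted p = 0.014) and by 0.43 in Foxo1KO/Foxo1AAA cells. Some dimmer probe sets of these neighbours were called. Thumpd3 1454061_at rose by 0.63 in Foxo1KO/Foxo1AAA against Foxo1KO cells (adjusted p = 0.007) and differed by 0.08 in Foxo1AAA against WT cells (adjusted p = 0.67). Setd5 1441125_at rose by 0.72 in Foxo1AAA against WT cells (adjusted p = 0.01) and by 1.12 in Foxo1KO/Foxo1AAA against Foxo1KO cells (adjusted p = 9.4e-04). Rad18 1451928_a_at rose by 1.21 and 1.13 in the same comparisons (adjusted p = 6.5e-04 and 5.4e-04), and Rad18 1423318_at rose by 0.57 in Foxo1AAA against WT cells (adjusted p = 0.021). Lhfpl4 1442043_at, below 4.97 on all arrays but 1, fell by 0.69 and 0.66 (adjusted p = 0.013 and 0.011).

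**Figure D4:**
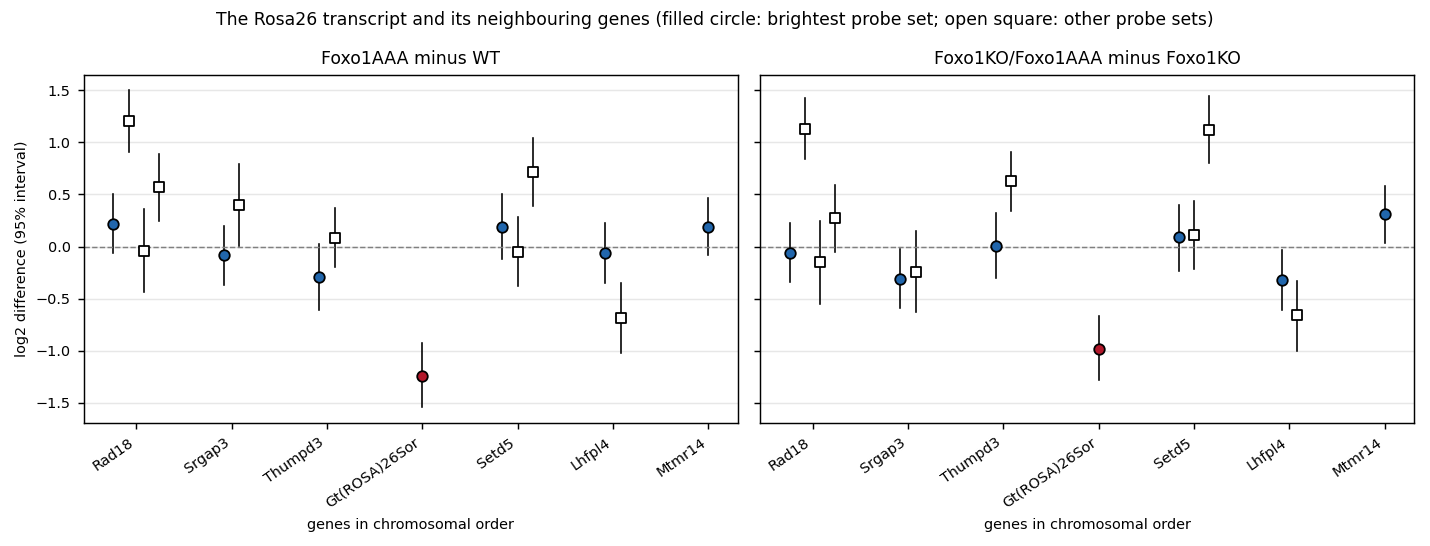
Log2 differences with 95% intervals of Gt(ROSA)26Sor (red) and its 3 neighbours on each side, in chromosomal order, for Foxo1AAA minus WT and for Foxo1KO/Foxo1AAA minus Foxo1KO. Gt(ROSA)26Sor lies at -1.24 and -0.98, and the brightest probe sets of the neighbours (filled circles) were not called, while some dimmer ones (open squares) were.

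Upstream of Foxo proteins stand PI3K, Akt and SGK kinases, 14-3-3 proteins, deacetylases and ubiquitin ligases. Of 57 such genes 54 were measured, and in Foxo1KO against WT cells 8 rose and 7 fell (median -0.03, against 0.03 over all genes), where 14.2% of genes were called in either direction. Cdk1, a cell cycle kinase, rose by 1.82 (limma adjusted p = 7.1e-05), and Sgk1, a kinase that phosphorylates Foxo proteins, rose by 1.57 (adjusted p = 4.8e-04). Skp2, the substrate receptor of a ubiquitin ligase that acts on Foxo1, rose by 0.52 (adjusted p = 0.014). Pik3r5, a regulatory subunit of PI3K gamma, fell by 1.59 (adjusted p = 5.6e-05), Phlpp1, an Akt phosphatase, fell by 0.80 (adjusted p = 0.001), and Sgk3 fell by 0.74 (adjusted p = 0.0027). Akt1 rose by 0.36 (adjusted p = 0.039). In Foxo1KO/Foxo1AAA against Foxo1KO cells 7 rose and 3 fell (median 0.08, against -0.07 over all genes), with 31.5% of genes called. Pik3r5 rose by 2.23 (adjusted p = 2.2e-05), Skp2 by 1.07 (adjusted p = 8.9e-04) and Pik3cb, a PI3K catalytic subunit, by 0.73 (adjusted p = 0.0033), while Sgk1 fell by 1.01 (adjusted p = 0.0087), Inpp5d (SHIP-1) by 0.53 and Ppp2r1a by 0.41. In Foxo1AAA against WT cells 5 rose and 1 fell, with 22.7% of genes called. Cdk1 rose by 2.04, Skp2 by 1.28 and Pik3r5 by 0.88, while Phlpp1 fell by 0.46. Against WT cells, 7 rose and 1 fell in Foxo1KO/Foxo1AAA cells, with 23.2% of genes called. Cdk1 rose by 2.48, Skp2 by 1.60 and the arginine methyltransferase Prmt1 by 0.96, while Phlpp1 fell by 0.46.

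Of 38 other forkhead genes 33 were measured, 7 of them dim. In Foxo1KO against WT cells 1 rose and 2 fell, where 14.2% of genes were called in either direction. Foxp1, which keeps T cells quiescent, averaged 10.63 in Foxo1KO cells and 12.24 in WT cells, a fall of 1.60 (limma adjusted p = 3.0e-05). Foxn3 fell by 0.63 (adjusted p = 0.0042), and Foxd2 rose by 0.42 (adjusted p = 0.05 after rounding). Foxm1, Foxj1 and Foxp3 differed by 0.04, 0.20 and 0.22 (adjusted p = 0.87, 0.38 and 0.24). Foxp1 also fell in Foxo1AAA against WT cells by 0.75 (adjusted p = 0.0042), and rose in Foxo1KO/Foxo1AAA against Foxo1KO cells by 0.66 (adjusted p = 0.0049). In Foxo1AAA against WT cells 1 rose and 7 fell (median -0.19, against -0.04 over all genes), where 12.2% of genes were called lower. Foxk2 rose by 0.59, while Foxm1, a driver of mitotic genes, fell by 0.57 and Foxh1 by 0.52. In Foxo1KO/Foxo1AAA against Foxo1KO cells 2 rose and 9 fell (median -0.31, against -0.07 over all genes), where 17.6% of genes were called lower. Foxh1 fell by 0.70, Foxn1 by 0.69, Foxj2 by 0.62 and Foxp3 by 0.46 (limma adjusted p = 0.028), while Foxk2 rose by 0.55. Group means of Foxn1 lay between 4.80 and 5.49 and those of Foxp3 between 5.10 and 5.56, close to the dim level of 4.97. The counts of this list were not repeated with median centring, which shifts differences in this comparison by 0.08. Against WT cells, 1 rose and 8 fell in Foxo1KO/Foxo1AAA cells (median -0.27, against -0.05 over all genes), where 23.2% of genes were called in either direction. Foxk2 rose by 0.63, while Foxp1 fell by 0.94, Foxp4 by 0.66 and Foxn1 by 0.64. Foxo6 had no probe set listed with it alone in the annotation used.

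Genes reported elsewhere as Foxo targets were counted in the same way. The list was drawn up with results of these arrays known and is no independent support. Comparisons of a Foxo1AAA array with the others also hold the cell and sex marker differences given above. The part of those differences in these values was not tested. Of 45 such genes 44 were measured. In Foxo1KO against WT cells 5 rose and 12 fell, where 14.2% of genes were called. Sesn1, a stress-responsive inhibitor of mTORC1, fell by 1.95 (adjusted p = 1.2e-05), Ccr7, the lymph node homing receptor, fell by 1.66 (adjusted p = 3.4e-05), and Bcl2l11, the pro-apoptotic protein Bim, fell by 1.64 (adjusted p = 5.4e-05). Il7r, the interleukin-7 receptor chain, averaged 10.25 in Foxo1KO cells and 11.72 in WT cells, a fall of 1.47 on the log2 scale (adjusted p = 3.6e-04). Klf2, which drives homing and egress receptors, averaged 11.38 in Foxo1KO cells and 12.06 in WT cells (difference -0.68, adjusted p = 0.0077). Fasl rose by 1.52, Cdkn1a by 1.25 and Rbl2 by 0.92. In Foxo1KO/Foxo1AAA against Foxo1KO cells 15 rose and 7 fell, where 31.5% of genes were called, with Il7r up by 2.35 (adjusted p = 8.6e-05), Ccr7 by 2.20 (adjusted p = 1.8e-05) and Cited2 by 1.86 (adjusted p = 3.8e-05), while Rbl2 fell by 0.95, Tnfsf10 by 0.85 and Fasl by 0.76. In Foxo1AAA against WT cells 9 rose and 3 fell, where 22.7% of genes were called, with Klf4 up by 1.33, Cited2 by 1.18 and Gadd45a by 1.04, while Tnfsf10 fell by 0.73, Bcl6 by 0.56 and Rag2 by 0.40. Against WT cells, 11 rose and 3 fell in Foxo1KO/Foxo1AAA cells, where 23.2% of genes were called, with Cited2 up by 1.35, Klf4 by 1.11 and Gadd45a by 0.94, while Bcl6 fell by 0.60, Sesn1 by 0.55 and Tnfsf10 by 0.52. Between Foxo1KO/Foxo1AAA and Foxo1AAA cells none of the regulators, forkhead genes or targets was called, where 0.0550% of genes were. The interaction was called for 5 of the 44 targets, 4 higher and 1 lower, where 3.40% of genes were called.

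Across the 6 arrays, which share 4 groups and the make-up differences above, each member's brightest probe set was set against 15056 genes. The genes most like Foxo1 were Lama2 (r = 0.989), Chrnb3 (0.987), Fzd1 (0.985), Itgb1bp2 (0.984) and Serac1 (0.983). Those most like Foxo3 were Riok2 (0.995), Ythdc2 (0.975), Becn1 (0.969), Scoc (0.968) and Thrap3 (0.968). Those most like Foxo4 were Rpl37 (0.994), Hnrnpr (0.993), Gm36617 (0.990), Rab33b (0.989) and Rnf24 (0.988). Those most like Gt(ROSA)26Sor were Hdhd5 (0.997), Bcl6 (0.995), Gdf2 (0.994), Trim5 (0.994) and Tnfsf11 (0.993). These rankings over 15056 genes carry no test. Foxo3 1434831_a_at spanned only 0.21 over the 6 arrays and was called in no comparison, and Chrnb3 lay between 5.67 and 5.93. At r of 0.95 or more there were 38 genes for Foxo1, 10 for Foxo3, 122 for Foxo4 and 185 for Gt(ROSA)26Sor. Among the members, Foxo4 and Gt(ROSA)26Sor correlated at 0.95, Foxo1 and Gt(ROSA)26Sor at 0.78, Foxo1 and Foxo4 at 0.61, and Foxo1 and Foxo3 at -0.05.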

How the data were processed

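Transcript levels of sorted mouse Treg cells were measured on 6 Affymetrix arrays in 4 groups, placed by the labels' genotype and title. The authors deposited log2 values made with RMA (background correction, quantile normalization across arrays, probe summary), limma 3.12.1 and R 2.15, as the submitters' processing notes list. Quantile normalization pulls arrays towards the same distribution, so a shift of most transcripts could be hidden. The deposited distributions still differed. Upper quartiles were 8.429 in Foxo1KO/Foxo1AAA cells, 8.416 in Foxo1AAA cells and 8.201 to 8.314 in Foxo1KO and WT cells. Lower quartiles were 4.855, 4.854 and 4.952 to 5.027 in the same order. The number of arrays limits the precision.

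The 64 control probe sets were left out of 45101. Members were every probe set listed with exactly 1 of the 4 symbols, and other genes were read on their brightest probe set over all arrays. Differences came from limma 3.58.1 (R 4.3.3), 1 coefficient per group, 5 comparisons of groups and an interaction, two-sided, with Benjamini-Hochberg adjustment over 45037 probe sets. The procedure was tried on simulated data for Foxo1KO against WT alone, and not for comparisons with a lone array. Only the replicated groups gave a spread (2 residual degrees of freedom, prior 6.62 degrees of freedom and SD 0.11). Exact permutation of 2 arrays against 2 gives no p below 0.333 and was not used. Named from each list were the 3 highest and 3 lowest called differences, with a fixed set of genes. Members and lists were chosen with earlier results of these data known. Alternatives comprised a filter on dim probe sets, 1 probe set per gene, trend and robust priors, median centring, repeated quantile normalization, the replicate block, the pairs alone, and leaving out each replicate. Same-numbered WT and Foxo1KO arrays deviated with a correlation of -0.093, so the numbers were not taken to pair them, although Y-linked Eif2s3y ran with the number (4.05 in Foxo1KO and 3.91 in WT replicate 1, 9.91 in Foxo1KO and 10.09 in WT replicate 2) and the block ends 1 call on Foxo1.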

Additional observations from a re-analysis of the deposited data

Results flagged for a closer look

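The knockout difference of 8 genes from the lists of regulators, forkhead genes and targets was called as differing with and without Foxo1AAA. The test was the limma interaction at an adjusted p under 0.05, where 3.40% of all genes were called. The called share was 3.7% of measured regulators, 3.03% of other forkhead genes and 11.4% of targets. The first and second of these lay near the share of all genes, and the lists were chosen with earlier results of these data known. Sesn1 differed by -0.43 with Foxo1AAA and by -1.95 without it, an interaction of 1.52 (adjusted p = 0.0052). Bcl2l11 differed by 0.17 with it and by -1.64 without it (interaction 1.81, adjusted p = 0.0046). Il7r differed by 0.38 with it and by -1.47 without it (interaction 1.85, adjusted p = 0.012). Foxp1 differed by -0.19 with it and by -1.60 without it (interaction 1.42, adjusted p = 0.0062). Ccr7 differed by -0.26 with it and by -1.66 without it (interaction 1.40, adjusted p = 0.0087). Pik3r5 differed by -0.25 with it and by -1.59 without it (interaction 1.35, adjusted p = 0.012). Cdk1 differed by 0.44 with it and by 1.82 without it (interaction -1.38, adjusted p = 0.021). Rbl2 differed by -0.09 with it and by 0.92 without it (interaction -1.01, adjusted p = 0.036). The differences with Foxo1AAA rest on 1 array in each group. No group held the 4 or more arrays needed to look for an array far from its group.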

How the results depend on the processing

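Over 531 alternative values of 55 results, 470 kept their direction and side of the threshold, 24 lost a call, 16 gained one and 21 changed sign. The sign changes were all in uncalled values near 0. Foxo3 1434831_a_at gave -0.085 in Foxo1AAA against WT cells with repeated quantile normalization, and 0.031 against Foxo1KO and 0.045 against WT in Foxo1KO/Foxo1AAA cells with median centring. Foxo3 1450236_at gave, in Foxo1AAA against WT cells, 0.040 with median centring and 0.076 with repeated quantile normalization, in Foxo1KO/Foxo1AAA against Foxo1KO cells 0.078 and 0.14, and in Foxo1KO/Foxo1AAA against WT cells 0.0023 and 0.039. Foxo4 1456753_at gave 0.032 in Foxo1KO against WT cells with repeated quantile normalization. Leaving out 1 replicate array, 1434831_a_at ranged from -0.079 to 0.13 (Foxo1AAA against WT), -0.084 to 0.12 (Foxo1KO against WT), -0.11 to 0.013 (Foxo1KO/Foxo1AAA against Foxo1KO) and -0.13 to 0.071 (Foxo1KO/Foxo1AAA against WT), 1450236_at from -0.17 to 0.027, -0.22 to 0.073, -0.15 to 0.14 and -0.17 to 0.025 in the same order, and 1456753_at from -0.18 to 0.070 in Foxo1KO against WT.

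Of the 10 probe sets, 2 were called in Foxo1KO against WT, but 3 with the trend and with median centring, 1 with 1 probe set per gene (1416983_s_at, not among the 2), 0 with repeated quantile normalization, and 0 to 3 leaving out 1 array. With the replicate number as a block, 1 was called, 1416981_at having -0.49 (adjusted p = 0.0574), and pairing moved no other call. Between Foxo1KO/Foxo1AAA and Foxo1AAA, 0 became 1 with the trend and with median centring, and 0 to 1 leaving out 1 array. With 1 probe set per gene, 2 and 3 were called in Foxo1KO/Foxo1AAA against Foxo1KO and against WT, since fewer probe sets were tested.

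Over all probe sets, 6220 were called in Foxo1KO against WT, 13844 in Foxo1KO/Foxo1AAA against Foxo1KO, 10686 in Foxo1AAA against WT, 27 in Foxo1KO/Foxo1AAA against Foxo1AAA, 11033 in Foxo1KO/Foxo1AAA against WT and 1368 in the interaction. With 1 probe set for each of 18193 genes these were 2944, 6430, 4658, 73, 4712 and 902. The 27 became 9 with the dim filter, 175 with the trend, 150 with median centring and 9 with repeated quantile normalization. Leaving out 1 array gave 3479 to 4507, 8748 to 13617, 6903 to 9326, 8 to 130, 7192 to 9600 and 240 to 1281. The causes were not tested. Median centring shifted all values of Foxo1AAA against WT by 0.11. The lone arrays could not be left out.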
